A study of Mus musculus with 8 samples.

Results

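The proteasome subunit genes were examined in the duodenum of mice that lack the NF-κB inhibitor IκBα in the intestinal epithelium. The members were chosen by name, as every probe set whose gene symbol is Psma, Psmb, Psmc, Psmd or Psme followed by digits alone, and 42 of the 22206 probe sets of the array met this rule, 1 for each gene. They comprised 8 α subunits of the 20S core, 4 non-catalytic and 2 catalytic β subunits, the 3 immunoproteasome subunits and the thymus-type subunit Psmb11. The others were 6 Psmc genes (19S ATPases), 14 Psmd genes (grouped as 19S non-ATPase subunits) and 4 activator genes. Groups follow the gene symbol, so not every Psmd gene need encode a subunit of the finished 19S particle. The rule used no measured value, though the members were chosen with earlier results of these data known. Psmb5, the catalytic subunit that Psmb8 replaces, was not analysed here.

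Total RNA of 8 untreated mice was hybridised to Clariom S arrays, a 1-colour array. In the 4 knockout (KO) mice a Villin-Cre transgene, which is active in villin-expressing epithelium, had removed the promoter and first exons of floxed Nfkbia, the gene for IκBα. The 4 wild-type (WT) mice were littermate siblings of the KO mice, which gave sibling pairs 1 to 4, and the labels do not say whether they carried Cre or a floxed allele. The mice were 8 weeks old in pairs 1 and 3, 11 weeks in pair 2 and 9 weeks in pair 4. Siblings were both male in pair 1 and both female in pair 2, while pair 3 set a male KO mouse against a female WT mouse and pair 4 a female KO mouse against a male WT mouse. RNA came from homogenised duodenum, labelled small intestine, so cells without villin contribute RNA and keep Nfkbia. RNA integrity numbers were 8.5, 8.3, 8.3 and 7.0 in KO mice 1 to 4, against 7.6, 8.7, 7.4 and 7.7 in their WT siblings. All 10 epithelial markers chosen as a check of the tissue lay above a background level of 5.64 (log2). Of the single array values of the 1091 olfactory receptor probe sets, 95% did not exceed this level. In such bulk RNA, more cells of a type and more RNA per cell cannot be told apart.

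The proteasome breaks down proteins that carry ubiquitin chains. Its 20S core is a barrel of stacked α and β rings, and proteins are cut inside it by the catalytic β subunits, encoded by Psmb5, Psmb6 and Psmb7 in most cells. The 19S particle caps the barrel, recognises ubiquitin and unfolds the substrate with its ATPase ring. Interferon-γ and related cytokines induce Psmb8, Psmb9 and Psmb10, which take the place of the standard catalytic subunits in new proteasomes, and the 11S activator of Psme1 and Psme2, and both changes favour peptides for MHC class I. The proteasome is also part of the NF-κB pathway itself, since it degrades IκBα after its ubiquitination and processes the NF-κB precursor p105.

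Of the 42 subunit genes, 3 rose and 0 fell in the KO duodenum: Psma6, an α subunit of the core, and the activator genes Psme1 and Psme4 (limma, sibling pair as a block, Benjamini-Hochberg adjusted p under 0.05 over all 22206 probe sets). That is 7.14% of the members, against 3.16% of all probe sets called higher and 2.7% called lower (5.86%, or 1301, in either direction). At an unadjusted p under 0.05 limma gave 11 members higher and 0 lower, against 13.2% of all probe sets higher and 14.2% lower. The remaining 39 members were not called. The median change of the 42 was 0.13 (log2, KO minus WT), beside −0.02 over all probe sets, and single members lay between −0.18 and 0.59. A change of the KO siblings in 1 direction in all 4 pairs was found upward in 16 members (38.1%, against 16.5% of all probe sets) and downward in 1 (against 17.9%). Such a rise is not particular to the members: of 9 measured housekeeping genes 6 (66.7%) were higher in all 4 pairs and 1 lower. Of the members 40 lay above background, against 15055 of the 22206 probe sets, so the 2 sets also differ in level. The 4 activator genes differed in the same way in every pair, while the immunoproteasome genes were higher in KO mice of pairs 1 and 2 and close to or below their siblings in pairs 3 and 4. Siblings were of the same sex in pairs 1 and 2 and of opposite sex in pairs 3 and 4. The part of sex in this split was not tested.

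**Figure D1:**
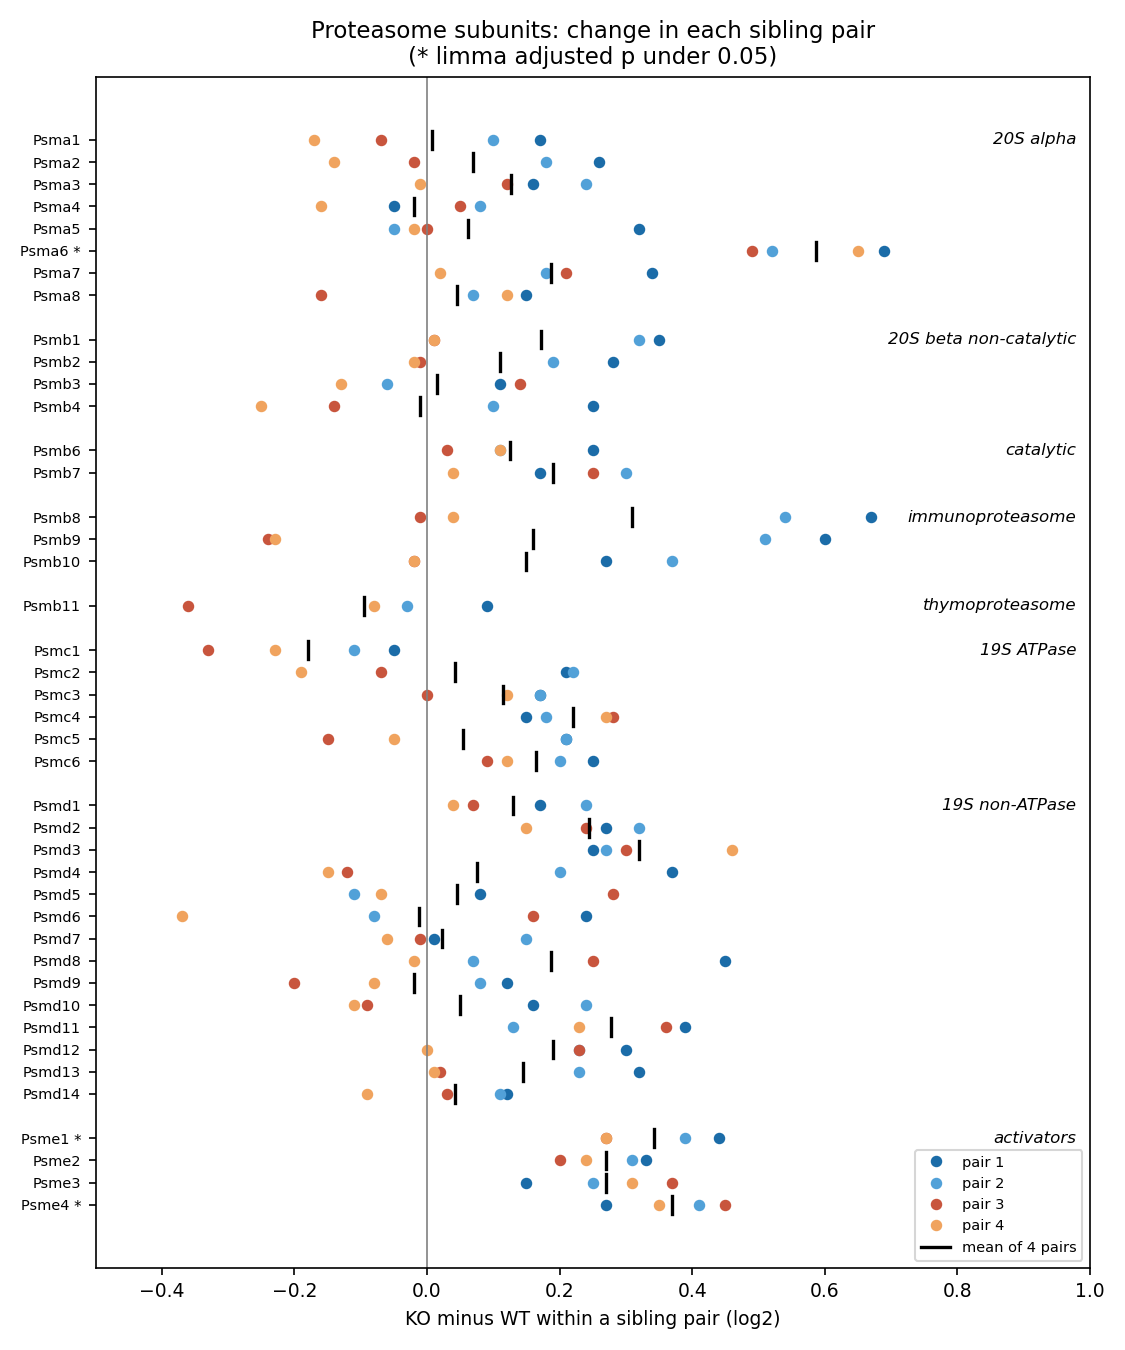
Each row is a proteasome subunit gene and each point the log2 value of the KO mouse minus that of its WT sibling, coloured by pair, with a black bar at the mean of 4 pairs. Psma6 lies apart on the right with its pairs between 0.49 and 0.69, the 4 activators lie right of 0 in every pair, and the immunoproteasome points split by pair.

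The deleted gene was the check of the labels. Nfkbia had log2 values of 6.82, 6.65, 7.72 and 6.65 in KO mice 1 to 4, against 9.75, 9.91, 9.01 and 9.78 in their WT siblings. The fall of −2.65 ± 0.918 (SD, n = 4 pairs, limma adjusted p = 0.0130) was smallest in pair 3, at −1.29. With 1 pair left out the fall was still called without pair 3 (adjusted p = 0.00106) and missed the threshold without pair 1, 2 or 4 (0.0512 to 0.0582). The pair means had largely been removed from the values as deposited (where a KO mouse lay above its group's mean its sibling lay below, with correlations of −0.913 to −0.870 across probe sets), so each member is described by its differences within pairs. For the same reason, groups without overlap add little to a difference in 1 direction in all 4 pairs. All KO values were above all WT values in 15.9% of all probe sets, and KO mice were higher in all 4 pairs in 16.5%. Values after ± are SDs of the 4 within-pair differences.

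Among the 8 α subunits, which form the outer rings of the core and its gate, 1 was called higher (against 3.16% of all probe sets). Psma6 had 10.67, 10.58, 10.55 and 10.65 in KO mice, against 9.98, 10.06, 10.06 and 10.00 in WT mice. All 4 KO values were above all 4 WT values, as was so for 15.9% of all probe sets, and the differences in pairs 1 to 4 were 0.69, 0.52, 0.49 and 0.65. Psma6 rose by 0.59 ± 0.0974 (a 1.50-fold rise, n = 4 pairs, limma adjusted p = 0.0151, 95% confidence interval 0.41 to 0.76). It was called in 10 of 15 other settings, among them centring on housekeeping genes (0.41, adjusted p = 0.0164). Leaving out pair 3 kept the call, and leaving out pair 1, 2 or 4 did not, with adjusted p from 0.0369 to 0.0645 over the 4 fits. The next largest change in the ring was that of Psma7, 0.19 ± 0.132 (adjusted p = 0.187). Psma1 changed least, by 0.0075 ± 0.155 (adjusted p = 0.964), with KO mice higher in pairs 1 and 2 and lower in pairs 3 and 4. The median of the 8 was 0.07. Psma8, the α subunit of germ cells, averaged 4.62 in KO and 4.57 in WT mice, both under the background level.

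Psma6 is also the protein-coding gene next to Nfkbia on chromosome 12, with 0 protein-coding genes between them in the RefSeq annotation of GRCm38.p6. This position was looked up after the values of Psma6 had been seen. Of the 8 protein-coding genes on each side of Nfkbia 14 have a probe set, and Psma6 was the 1 called among them (against 5.86% of all probe sets in either direction). The other 13 lay between −1.0 and 0.38 with adjusted p from 0.0575 to 0.978. KO mice were higher in all 4 pairs for 4 of these 13 (against 16.5% of all probe sets). On the side of Psma6 these were the mitochondrial RNase P gene Prorp (0.33 ± 0.143, adjusted p = 0.0661) and Ppp2r3c (0.22 ± 0.0670, adjusted p = 0.110). On the other side they were Ralgapa1 (0.38 ± 0.177, adjusted p = 0.0575) and Brms1l (0.31 ± 0.170, adjusted p = 0.0857). Aldoart2, the nearest gene on that side, differed by 0.04 ± 0.120 (adjusted p = 0.772). Since every KO mouse carries the engineered Nfkbia allele, an effect of that allele or of DNA linked to it and an effect of the loss of IκBα cannot be told apart for Psma6.

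**Figure D2:**
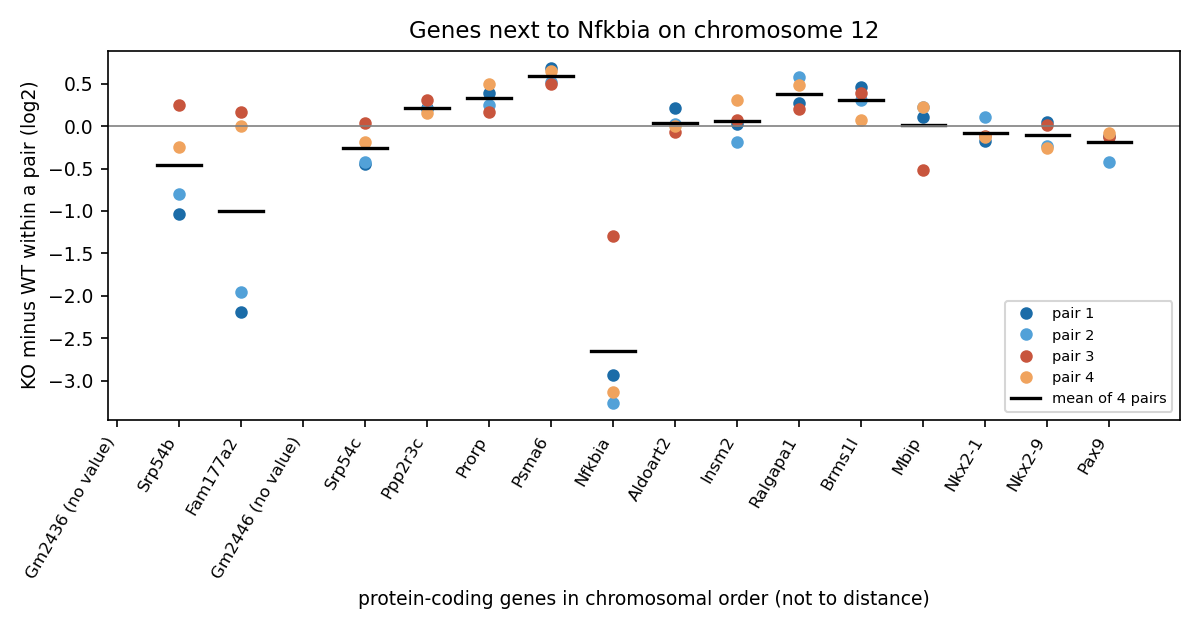
Log2 value of the KO mouse minus its WT sibling (vertical axis) for Nfkbia and the 8 protein-coding genes on each side in chromosomal order, with 1 point for each pair and a bar at the mean of 4 pairs. Nfkbia lies between −3.26 and −1.29, Psma6 beside it between 0.49 and 0.69, and the nearest gene on the other side, Aldoart2, at a mean of 0.04.

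The promoter windows of the 3 called genes and of Psmb8 and Psmb9 are shown because the first rose in every pair and the last ones moved together by pair. The RefSeq windows of GRCm38.p6, 250 bases before to 50 after a gene's start, were available for 35 of the 42 members, in 38 windows. They were searched on both strands for the κB consensus of NF-κB, for the interferon-stimulated response element GAAANNGAAA and for the antioxidant response element TGACNNNGC, which is also bound by Nfe2l1. Each sequence below runs from 100 bases before the start to 30 after it, with matches in capitals. Psma6 is at chr12:55384122-55384251 (plus strand), the first of its 2 windows, Psme1 at chr14:55578394-55578523 (plus strand), Psme4 at chr11:30771675-30771804 (plus strand), Psmb8 at chr17:34198095-34198224 (plus strand) and Psmb9 at chr17:34187301-34187430 (minus strand).
Psma6: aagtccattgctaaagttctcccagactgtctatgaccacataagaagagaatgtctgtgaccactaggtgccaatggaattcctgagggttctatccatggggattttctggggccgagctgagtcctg
Psme1: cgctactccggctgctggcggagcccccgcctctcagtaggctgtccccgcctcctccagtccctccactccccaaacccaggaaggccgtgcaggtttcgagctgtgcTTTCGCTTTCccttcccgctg
Psme4: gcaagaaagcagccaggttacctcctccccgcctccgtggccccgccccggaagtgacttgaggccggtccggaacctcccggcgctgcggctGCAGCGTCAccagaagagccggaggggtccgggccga
Psmb8: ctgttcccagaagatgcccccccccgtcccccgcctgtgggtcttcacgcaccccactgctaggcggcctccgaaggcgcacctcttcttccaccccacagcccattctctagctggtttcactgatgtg
Psmb9: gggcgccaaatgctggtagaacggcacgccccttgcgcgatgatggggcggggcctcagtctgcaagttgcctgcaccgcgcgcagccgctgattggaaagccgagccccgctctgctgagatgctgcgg
Psme1 holds the interferon-stimulated element on the reverse strand from base 10 to 19 after the start. Psme4 holds the antioxidant element on the reverse strand across the start. In the Psma6, Psmb8 and Psmb9 windows none of these motifs was found. Over the members' 38 windows the κB consensus was in 1 (2.63%, against 4.51% of all 32851 windows), the interferon element in 4 (10.5%, against 3.44%) and the antioxidant element in 5 (13.2%, against 12.4%). The κB match was that of Psmd12, and the other interferon element matches were those of Psmb3, Psmd4 and Psmd9. A match describes letters only, and binding was not measured.

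The β subunits outside the catalytic sites had 0 of 4 called by limma (against 3.16% of all probe sets higher and 2.7% lower). At unadjusted p under 0.05 there were also 0 (against 13.2% and 14.2%). Psmb1 differed most, by 0.17 ± 0.188 (adjusted p = 0.275), with 0.35 and 0.32 in pairs 1 and 2 and 0.01 in each of pairs 3 and 4. Psmb2 followed with 0.11 ± 0.149 (adjusted p = 0.431), and Psmb4 changed least, by −0.01 ± 0.227 (adjusted p = 0.961). Of the standard catalytic subunits, Psmb6 had 10.46, 10.38, 10.31 and 10.36 in KO mice, against 10.21, 10.27, 10.28 and 10.25 in WT mice. Psmb7 had 10.17, 10.23, 10.18 and 10.07 in KO mice, against 10.00, 9.93, 9.93 and 10.03 in WT mice. For both genes every KO value was above every WT value (against 15.9% of all probe sets), and neither was called. Psmb6 differed by 0.13 ± 0.0915 (adjusted p = 0.315) and Psmb7 by 0.19 ± 0.113 (adjusted p = 0.170, unadjusted p = 0.0435).

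The immunoproteasome genes were well expressed in both genotypes, with mean log2 values over all arrays between 9.95 and 10.64. Of the 3, 0 were called by limma (against 3.16% of all probe sets higher and 2.7% lower). At unadjusted p under 0.05 there were also 0 (against 13.2% and 14.2%), and with 3 genes such counts say little. Psmb8, which carries the chymotrypsin-like site, had 10.98 and 10.92 in KO mice 1 and 2 and 10.63 and 10.66 in KO mice 3 and 4, against 10.31 and 10.38 in WT mice 1 and 2 and 10.64 and 10.62 in WT mice 3 and 4. Its KO and WT values overlapped, and the differences were 0.67, 0.54, −0.01 and 0.04 in pairs 1 to 4. The mean difference was 0.31 ± 0.345 (adjusted p = 0.193, 95% confidence interval −0.01 to 0.63).

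Psmb9 differed by 0.60 and 0.51 in pairs 1 and 2 and by −0.24 and −0.23 in pairs 3 and 4, so the KO sibling was the lower one there. Its values were 10.26, 10.19, 9.81 and 9.84 in KO mice, against 9.66, 9.68, 10.05 and 10.07 in WT mice. The mean was 0.16 ± 0.458 (adjusted p = 0.576, interval −0.24 to 0.56). Psmb10, which takes the place of Psmb7, differed by 0.27, 0.37, −0.02 and −0.02 in pairs 1 to 4, with a mean of 0.15 ± 0.201 (adjusted p = 0.349, interval −0.08 to 0.38). It had 10.71, 10.75, 10.57 and 10.57 in KO mice, against 10.44, 10.38, 10.59 and 10.59 in WT mice. All 3 genes thus had their higher KO minus WT differences in pairs 1 and 2. Since the pair means had largely been removed, levels of KO mice cannot be compared between pairs. With intervals this wide, the absence of a call does not show that these genes were alike in the genotypes.

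**Figure D3:**
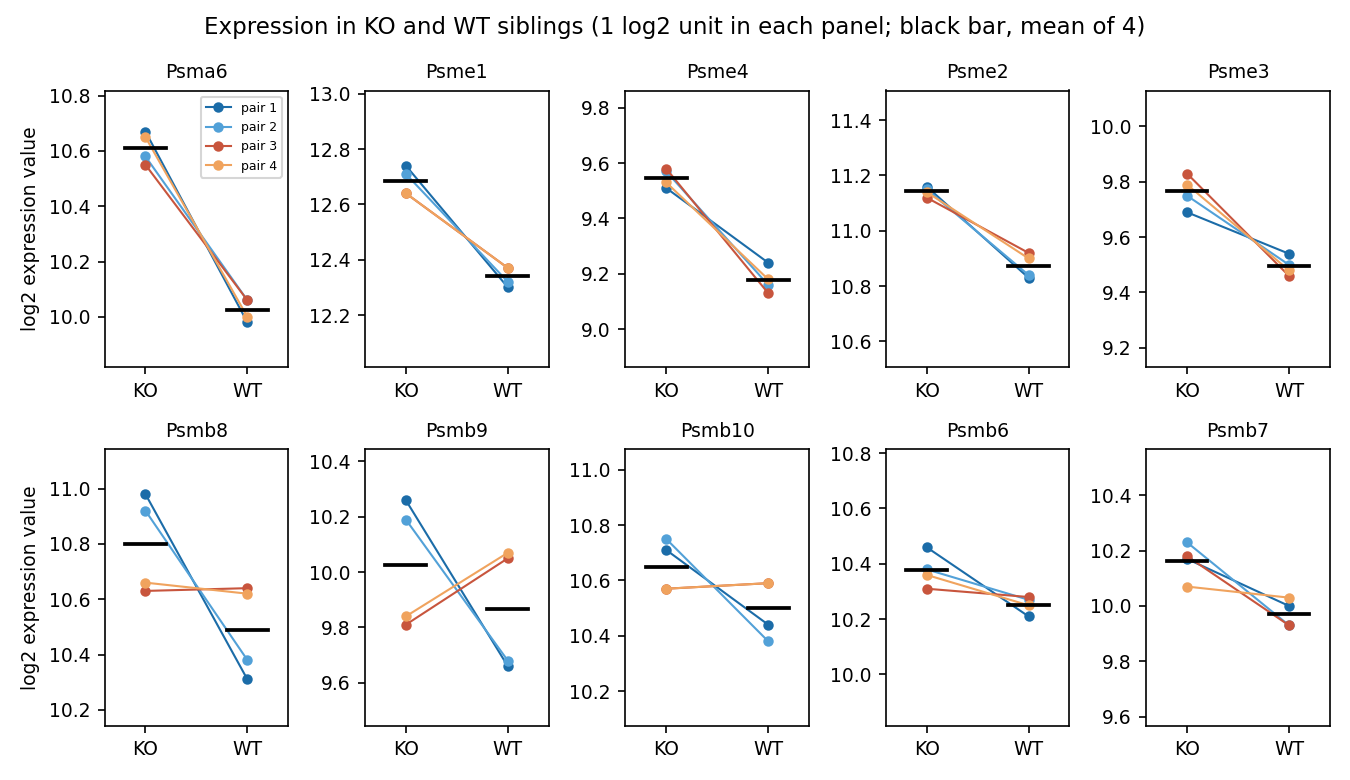
Log2 expression values of 10 proteasome genes in KO (left) and WT (right) mice, with a line joining siblings, a colour for each pair and black bars at the means of 4. Lines of Psma6, Psmb6, Psmb7 and the 4 activator genes slope the same way in every pair. The slope is slight for Psmb6 in pair 3 (0.03) and for Psmb7 in pair 4 (0.04). Lines of Psmb8, Psmb9 and Psmb10 are steep in pairs 1 and 2 and flat or turned round in pairs 3 and 4.

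Whether an immunoproteasome subunit changed more than the standard subunit it replaces was tested within pairs, for the 2 contrasts that could be formed. The change of Psmb9 exceeded that of Psmb6 by 0.35 and 0.40 in pairs 1 and 2 and was below it by 0.27 and 0.34 in pairs 3 and 4 (differences of −0.27 and −0.34), with a mean of 0.04 ± 0.394 (exact sign-flip permutation test over 4 pairs, two-sided p = 0.75, adjusted p = 0.875). The change of Psmb10 minus that of Psmb7 was 0.10, 0.07, −0.27 and −0.06, with a mean of −0.04 ± 0.168 (exact p = 0.875, adjusted p = 0.875). The smallest p that 16 assignments allow is 0.125, so this test could not pass 0.05. The contrast of Psmb8 with Psmb5 was not analysed here.

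Psmb11, the thymus cortex subunit, averaged 5.37 in KO and 5.46 in WT mice, both under the background level, and differed by −0.10 ± 0.191 (adjusted p = 0.543).

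Of the 20 genes grouped as 19S subunits 0 were called by limma (against 3.16% of all probe sets higher and 2.7% lower). There were 5 higher and 0 lower at an unadjusted p under 0.05 (against 13.2% and 14.2% of all probe sets), and the median was 0.10. In the ATPase ring Psmc4 differed by 0.22 ± 0.0648 (adjusted p = 0.106). It had 10.04, 10.04, 10.05 and 10.06 in KO mice, against 9.89, 9.86, 9.77 and 9.79 in WT mice, with no overlap (against 15.9% of all probe sets). Psmc1 went the other way, by −0.18 ± 0.125 (adjusted p = 0.196). Its values were 9.92, 9.88, 9.75 and 9.81 in KO mice, against 9.97, 9.99, 10.08 and 10.04 in WT mice, and it was the 1 member lower in KO mice of all 4 pairs, with no overlap (against 17.2% of all probe sets). Psmc1 was called lower after centring on housekeeping genes (−0.36, adjusted p = 0.0220), where 25.3% of all probe sets were called lower. It was also called lower without the pair block, where 18.1% of all probe sets were called lower and 16.3% higher. That fit takes siblings as independent although the pair means had largely been removed, so its p-values are too small. Psmc2 changed least in the ring (0.04 ± 0.205, adjusted p = 0.805).

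Among the 14 genes grouped as non-ATPase subunits, the lid subunit gene Psmd3 had 10.15, 10.16, 10.16 and 10.24 in KO mice, against 9.90, 9.89, 9.86 and 9.78 in WT mice. All KO values were above all WT values (against 15.9% of all probe sets), and the difference of 0.32 ± 0.0956 fell just outside the threshold (adjusted p = 0.0558). Psmd11, another lid subunit, differed by 0.28 ± 0.120 (adjusted p = 0.0828) and Psmd2, a large scaffold of the base, by 0.25 ± 0.0714 (adjusted p = 0.0873). In both genes KO mice were higher in all 4 pairs (against 16.5% of all probe sets). The smallest change was that of Psmd6 (−0.01 ± 0.274, adjusted p = 0.958). The ubiquitin receptor Psmd4 and the deubiquitinase Psmd14 differed by 0.08 ± 0.253 (adjusted p = 0.689) and 0.04 ± 0.0971 (adjusted p = 0.745), and these, like Psmd2, were chosen after their values had been seen.

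The activator genes had 2 of 4 called higher (against 3.16% of all probe sets), and all 4 had every KO value above every WT value (against 15.9%). Psme1, the α subunit of the 11S activator, had 12.74, 12.71, 12.64 and 12.64 in KO mice, against 12.30, 12.32, 12.37 and 12.37 in WT mice. It rose by 0.34 ± 0.0862 (1.27-fold, adjusted p = 0.0461). Psme2, the β subunit of the same ring, had 11.16, 11.15, 11.12 and 11.14 in KO mice, against 10.83, 10.84, 10.92 and 10.90 in WT mice, and differed by 0.27 ± 0.0606 without passing the threshold (adjusted p = 0.0691).

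Psme4 encodes PA200, a nuclear activator made of a single chain. It had 9.51, 9.57, 9.58 and 9.53 in KO mice, against 9.24, 9.16, 9.13 and 9.18 in WT mice, and rose by 0.37 ± 0.0783 (1.29-fold, adjusted p = 0.0375). Psme3, which forms the nuclear 11S ring PA28γ, had 9.69, 9.75, 9.83 and 9.79 in KO mice, against 9.54, 9.50, 9.46 and 9.48 in WT mice. It differed by 0.27 ± 0.0938 (adjusted p = 0.0778). The median of the 4 was 0.31, and 0.30, 0.35, 0.32 and 0.29 in pairs 1 to 4. Without any 1 pair limma called neither Psme1 (adjusted p from 0.103 to 0.157) nor Psme4 (0.0919 to 0.136), with fewer calls among all probe sets in these fits too (145 to 459, against 1301).

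The calls of Psme1 and Psme4 were also lost with RNA integrity added (adjusted p = 0.0959 and 0.0830), with sex added (0.0932 and 0.0785) and after quantile normalization (0.0595 and 0.0506). Their differences were 0.338 and 0.372 with RNA integrity, 0.343 and 0.37 with sex, and 0.315 and 0.333 after quantile normalization. Calls among all probe sets went from 1301 to 364 with RNA integrity, to 464 with sex and to 1222 after quantile normalization. The part of RNA integrity or sex was not tested.

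Scaling bears on these small changes. Of 9 measured housekeeping genes 8 had a positive difference, with a median of 0.20, and 1 of them, Gusb, was called higher. Centring each array on them moved the median of all probe sets to −0.19 and that of the 42 members to −0.05, with 1 member called higher (Psma6, against 2.17% of all probe sets) and 1 lower (Psmc1, against 25.3%). On that scale Psme1 differed by 0.17 (adjusted p = 0.129) and Psme4 by 0.19 (adjusted p = 0.112), and Psmb9, Psmb10, Psmb6, Psmb1 and Psmb2 turned to just below 0 (−0.02, −0.03, −0.05, −0.0033 and −0.07). With a trend and robust variance 6 members were higher and 0 lower, against 5.11% and 3.88% of all probe sets.

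The differences between pairs were set beside markers of other cells. The median of all 42 members was 0.25, 0.20, 0.03 and −0.02 in pairs 1 to 4, and 40, 36, 24 and 19 of them were higher in the KO sibling, against 47.0% to 47.9% of all probe sets in each pair. The immunoproteasome median was 0.60, 0.51, −0.02 and −0.02. The 12 measured leukocyte markers differed on average by 0.29, 0.15, −0.05 and −0.37 in the same pairs, with mean levels of 8.19 to 8.56 in KO and 8.27 to 8.56 in WT mice. Of them 1 was called, Cd4, higher by 0.40 ± 0.134 (adjusted p = 0.0427), and at unadjusted p under 0.05 there were 2 higher and 3 lower. Cd3g, at −0.56 ± 0.362 (adjusted p = 0.0648), and Cd3e, at −0.31 ± 0.312 (adjusted p = 0.173), had lower values in KO mice of all 4 pairs (against 17.9% of all probe sets). Cd79a differed by 0.86, 0.76, −0.15 and −0.09 in pairs 1 to 4, and Ms4a1 by 1.46, 0.87, −0.59 and 0.13, both uncalled. Of the 12 markers 7 had a positive mean difference and 5 a negative one. All 12 lay above background. The 7 adipose markers differed on average by 3.07, 2.79, 0.23 and −0.0014, with mean levels of 7.17 to 8.86 in KO and 5.79 to 7.17 in WT mice, and 0 of 7 were called by limma (5 at unadjusted p under 0.05). Of these markers Lep lay under background on all arrays. The 6 acinar markers differed by −0.44, 0.20, −4.11 and −3.71, with 6.28 to 8.04 in KO and 7.84 to 10.4 in WT mice and 0 of 6 called (3 at unadjusted p under 0.05). The 6 smooth muscle markers differed by 0.23, 0.02, −0.56 and −0.72, with 10.58 to 11.16 in KO and 10.93 to 11.3 in WT mice and 0 of 6 called (0 at unadjusted p under 0.05). The 10 epithelial markers differed by 0.02, −0.10, −0.05 and −0.07, with 11.68 to 11.76 in KO and 11.74 to 11.81 in WT mice. Of these Cdx1 was called higher (0.44 ± 0.128, adjusted p = 0.0332). Lower values in KO mice of all 4 pairs were found in 5 (against 17.9% of all probe sets), with the largest difference in Vil1 (−0.34 ± 0.110, adjusted p = 0.0512). At unadjusted p under 0.05, 2 epithelial markers were higher and 4 lower. Beside each marker list above, 13.2% of all probe sets were higher and 14.2% lower at that level. The part of leukocytes, fat, pancreas, muscle, epithelium or the siblings' sex in the members' differences was not tested. A fit with the leukocyte mean as a covariate averaged markers that moved in different directions, so it is not a test of their part. In that fit Psmb8 differed by 0.30 (limma adjusted p = 0.0866), Psmb9 by 0.15 and Psmb10 by 0.15.

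**Figure D4:**
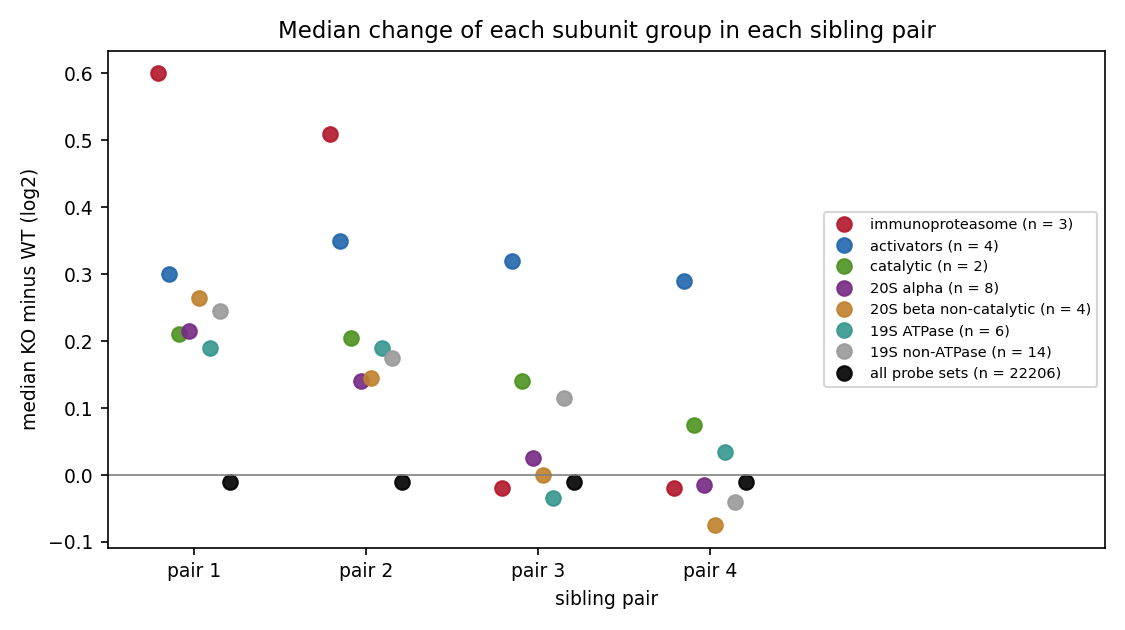
Median log2 difference between KO and WT siblings (vertical axis) of each group of proteasome subunits with more than 1 gene and of all probe sets in pairs 1 to 4. The activators stay between 0.29 and 0.35, the immunoproteasome is at 0.60 and 0.51 in pairs 1 and 2 and at −0.02 in pairs 3 and 4, and all probe sets stay at −0.01.

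Genes that build, feed or use the proteasome gave the surroundings of these changes. Of 13 measured assembly and accessory factors 2 rose and 0 fell (15.4% higher, against 3.16% of all probe sets called higher and 2.7% called lower). Usp14, a deubiquitinase that docks on the 19S base and trims ubiquitin chains, had 7.29, 7.38, 7.31 and 7.26 in KO mice, against 6.95, 6.87, 6.85 and 6.93 in WT mice (0.41 ± 0.0891, adjusted p = 0.0321). Nfe2l1, the transcription factor that raises proteasome genes when proteasome activity is short, had 10.40, 10.48, 10.40 and 10.44 in KO mice, against 10.18, 10.08, 10.06 and 10.01 in WT mice (0.35 ± 0.0929, adjusted p = 0.0460). In both genes all KO values were above all WT values (against 15.9% of all probe sets). Both lost the call after centring on housekeeping genes (0.23, adjusted p = 0.0650, for Usp14 and 0.17, adjusted p = 0.158, for Nfe2l1) and in each fit that left out a pair. They also lost it with RNA integrity added (adjusted p = 0.0751 for Usp14 and 0.0800 for Nfe2l1) and with sex added (0.0672 and 0.0913), and Nfe2l1 with quantile normalization (0.0635). The differences were 0.41 and 0.364 with RNA integrity and 0.41 and 0.347 with sex, in fits with 364 and 464 calls among all probe sets, against 1301. The median of the list was 0.12.

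Of 8 measured genes of ubiquitin supply and delivery 0 were called by limma (5 higher and 0 lower at unadjusted p under 0.05, against 13.2% and 14.2% of all probe sets), with a median of 0.21. The largest differences were those of the shuttle receptor Rad23b (0.30 ± 0.0680, adjusted p = 0.0568) and of the p97 cofactor Nploc4 (0.29 ± 0.0780, adjusted p = 0.0645). Of 9 measured partners in class I antigen processing 0 were called by limma (2 higher and 0 lower at unadjusted p under 0.05, against 13.2% and 14.2% of all probe sets), with a median of 0.06. The peptide transporter gene Tap1 differed by 0.80, 0.54, 0.11 and 0.23 in pairs 1 to 4 (0.42 ± 0.311, adjusted p = 0.0922) and the loading factor Tapbp by 0.28 ± 0.0783 (adjusted p = 0.0680). Irf1, a regulator of immunoproteasome genes that was chosen after its values were seen, differed by 0.44, 0.37, −0.15 and −0.05 (0.15 ± 0.296, adjusted p = 0.449).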

How the data were processed

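The members and gene lists were chosen with earlier results of these data known. The labels gave 4 KO and 4 WT arrays and numbered the sibling pairs. The authors deposited 1 log2 value for each probe set and array. Per the submitters' processing notes they used RMA and Transcriptome Analysis Console 4.0, and no further setting is known here. Array medians lay between 6.77 and 6.81. Of 22206 probe sets 19572 had a gene symbol and 2634 are unnamed here, with 0 symbols differing from the RefSeq table. No detection calls were used.

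Tests were run in R 4.3.3 by lmFit and eBayes of limma 3.58.1 on all probe sets, with the sibling pair as a block since the labels number littermates, Benjamini-Hochberg adjustment and a threshold of 0.05. The check of the pairing is the correlation of siblings' deviations, between −0.913 and −0.870, which shows that most of the pair means had been removed. Differences of pairs 1 and 2 correlated at 0.682 across probe sets and those of pairs 3 and 4 at 0.673, against 0.346 to 0.420 otherwise, which the test does not allow for, so its p-values may be too small. The fit has 3 residual degrees of freedom, 6.63 after moderation, and the number of arrays limits the precision. The code was tested on simulated data. Medians over groups of members are descriptions without a test. Named genes were all called members, the immunoproteasome, catalytic and activator genes, members under background, the 2 largest and the smallest change of each other group, and the called genes of each pathway list or its 2 largest. Neighbours of Nfkbia, Psmd2, marker genes, Psmd4, Psmd14 and Irf1 were added after values had been seen. Alternatives were other scalings, filters, covariates and variance models, the fit without the block and fits without pairs.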

Additional observations from a re-analysis of the deposited data

Results flagged for a closer look

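In 3 of 84 groups of 4 values (42 genes in KO and in WT mice), 1 value stood apart by Dixon's criterion, which chance meets in about 5% of independent groups. These groups are not independent, since the pair means had largely been removed, and an extreme cannot be assigned to 1 of the siblings. Psma5 was highest in KO mouse 1 at 9.61, against 9.40 to 9.42 in the other KO mice (a gap of 0.905 of the range). Psmd3 was highest in KO mouse 4 at 10.24, against 10.15 to 10.16 (0.889). Psmc3 was highest in WT mouse 3 at 10.46, against 10.39 to 10.40 (0.857). The siblings of these mice were the lowest of their own group, at 9.29 for Psma5, 9.78 for Psmd3 and 10.46 for Psmc3.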

How the results depend on the processing

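Of the members, 3 were called higher and 0 lower with the pair block. Without the block 15 were higher and 1 lower, in a fit whose p-values are too small since the pair means had largely been removed. The number higher was 1 with RNA integrity or sex added, with quantile normalization or centred on housekeeping genes (1 lower there), 6 with trend and robust variance, 0 in pairs 1 and 2 only or pairs 3 and 4 only, and 0 to 1 on leaving out a pair. With dim probe sets left out, the leukocyte mean added or centring on epithelial genes it was 4, with Psmd3 added to the 3. In those fits 820 of 15055, 1269 of 22206 and 1165 of 22206 probe sets were higher. With RNA integrity, sex, quantile normalization and housekeeping centring 212, 231, 641 and 482 of 22206 were higher. In pairs 1 and 2 only it was 0 of 22206, in pairs 3 and 4 only 1, and 89 to 219 on leaving out a pair. Of all probe sets 3622 were higher and 4026 lower without the block, against 702 and 599, and the share of higher among calls, 54.0%, was 7.9% centred on housekeeping and 71.1% on epithelial genes. The cause was not tested. Group medians centred on housekeeping genes were −0.0496 for all members, −0.11 for α, −0.113 for non-catalytic β, −0.0183 for catalytic, −0.0158 for immunoproteasome, −0.0908 for ATPase and −0.0733 for non-ATPase subunits and 0.13 for activators, which were at 0.358 centred on epithelial genes and 0.275 with quantile normalization. In pairs 1 and 2 only the medians were 0.555 for the immunoproteasome and 0.23 for non-ATPase subunits. Psmb9 minus Psmb6 was −0.305 in pairs 3 and 4 only (−0.0867 to 0.16 on leaving out a pair) and Psmb10 minus Psmb7 0.085 in pairs 1 and 2 only (−0.0867 to 0.0367).

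Named genes that changed sign were all uncalled. Centred on housekeeping genes Psma1 was at −0.168, Psma8 at −0.131, Psmc2 at −0.133, Psmb2 at −0.0658, Psmb6 at −0.0508, Psmb10 at −0.0258, Psmb9 at −0.0158 and Psmb1 at −0.0033. In pairs 3 and 4 only Psmb9 was at −0.235, Psmc2 at −0.13, Psma1 at −0.12, Psma8 and Psmb10 at −0.02 and Psmb2 at −0.015. In pairs 1 and 2 only Psmb4 was at 0.175, Psmd6 at 0.08 and Psmb11 at 0.03. Centred on epithelial genes Psmb4 was at 0.0412 and Psmd6 at 0.0388. With quantile normalization Psma1 was at −0.0362 and Psmc2 at −0.0041, and with RNA integrity Psma1 at −0.0058. On leaving out a pair Psma1 ranged over −0.0467 to 0.0667, Psmc2 over −0.0167 to 0.12, Psmb4 over −0.0967 to 0.07 and Psmd6 over −0.0967 to 0.107.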

Other observations

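Further along the side of Psma6, the paralogues Srp54b and Srp54c and the gene Fam177a2 between them had lower values in KO mice of pairs 1 and 2. None of the 3 was called. Fam177a2 differed by −2.19, −1.96, 0.16 and 0.00 in pairs 1 to 4 (−1.0 ± 1.25, limma adjusted p = 0.189) and Srp54b by −1.04, −0.80, 0.25 and −0.25 (−0.46 ± 0.577, adjusted p = 0.205). Srp54c differed by −0.45, −0.42, 0.04 and −0.19 (adjusted p = 0.166). These genes were chosen after their values were seen.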
